A study of Homo sapiens with 24 samples.

Results

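Metallothioneins are small, cysteine-rich proteins that hold zinc and copper in cells and bind toxic metals such as cadmium. Their level was measured here through 8 probes of an Illumina expression array, 1 probe per gene, out of the 47323 probes on the array. They were chosen by probe identifier, namely ILMN_1686664 for MT2A, ILMN_1775170 for MT1X, ILMN_2173611 for MT1E, ILMN_1691156 for MT1A, ILMN_1715401 for MT1G, ILMN_1718766 for MT1F, ILMN_1657435 for MT1M and ILMN_2124802 for MT1H. The choice was made with earlier results of these data known, so counts of members set beside shares of all probes are a description. Each probe was read on all 24 arrays of the series, and 6 of the 8 were detected on at least 3 arrays and could be tested. The arrays came from 4 Hodgkin lymphoma (HL) cell lines, which the study classes by whether AEZS-136 kills them, KM-H2 and L-428 as resistant, and L-540 and SUP-HD1 as sensitive. Each line was exposed for 24 hours to 10 μM AEZS-136, a small molecule that inhibits both PI3K and ERK, or to its DMSO vehicle, with 3 arrays per line and treatment. Within a line, the labels name no introduced genetic change and no further agent that separates treated from vehicle-treated cells. Comparisons between lines or classes set different cell lines against each other and carry every other difference between them. Each class holds 2 established lines. The labels number the replicates without saying whether they came from separate cultures, so p-values measure the spread between these arrays. The question put to the family was whether it responded to AEZS-136, and whether the resistant and sensitive lines differed in that response or in the level before it.

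The metallothionein genes of the MT1 and MT2 subfamilies lie side by side on human chromosome 16. Their transcription is switched on by zinc and other metals through the metal-responsive factor MTF1, which binds short metal response elements (MREs) in their promoters, and MT2A is also a classical target of glucocorticoids and of oxidative stress. MT2A is the most widely expressed member in human tissues, whereas several MT1 genes are known to be silenced in tumours. In the RefSeq annotation, MT2A opens the stretch of 15 genes that holds all 8 members and MT1X closes it. MT1E, MT1M, MT1A, MT1F, MT1G and MT1H lie between them in that order, among other MT1 genes and pseudogenes.

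Promoter sequences were at hand for 3 of the 8 members (RefSeq, assembly GRCh38.p14), and they are shown because MREs are the elements through which the family is best known to respond. The 250 bases before the start site are given 5′ to 3′ on the plus strand, which is the strand of all 3 genes, with capitals marking each match to the MRE core TGCACNC or its variant TGCGCNC on either strand. The window of MT2A lies at chr16:56608334-56608583, that of MT1X at chr16:56682220-56682469 and that of MT1H at chr16:56669564-56669813.
MT2A: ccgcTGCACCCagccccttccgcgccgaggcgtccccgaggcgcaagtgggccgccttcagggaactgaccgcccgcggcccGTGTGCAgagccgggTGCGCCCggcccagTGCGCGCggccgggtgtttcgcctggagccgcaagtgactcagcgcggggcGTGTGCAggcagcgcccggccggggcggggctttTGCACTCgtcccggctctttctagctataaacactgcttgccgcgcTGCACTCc
MT1X: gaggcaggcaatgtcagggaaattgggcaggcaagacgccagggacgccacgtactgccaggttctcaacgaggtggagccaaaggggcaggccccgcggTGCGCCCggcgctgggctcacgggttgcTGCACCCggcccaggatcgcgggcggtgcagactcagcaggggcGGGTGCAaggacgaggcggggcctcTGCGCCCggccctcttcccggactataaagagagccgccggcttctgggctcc
MT1H: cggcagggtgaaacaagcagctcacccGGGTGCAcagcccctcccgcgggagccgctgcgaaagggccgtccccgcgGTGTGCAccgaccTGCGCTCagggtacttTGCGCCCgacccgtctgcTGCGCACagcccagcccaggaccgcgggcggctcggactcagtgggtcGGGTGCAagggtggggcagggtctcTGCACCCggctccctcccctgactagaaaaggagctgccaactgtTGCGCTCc

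MT2A held 7 matches to the MRE core, MT1X 4 and MT1H 8. Over all 35116 RefSeq promoters searched in the same window, 24.8% held at least 1 match, 0.37% at least 4, 0.0313% at least 7 and 0.0171% at least 8. All 3 promoters held a plus-strand match close to the start site, at positions -54 to -48 in MT2A and -53 to -47 in MT1X and MT1H, and MT2A and MT1H held another at -8 to -2. One match to the antioxidant response element TGACNNNGC was found in MT2A and 1 in MT1X, and none in MT1H, and 10.9% of all promoters held at least 1. A match is a run of letters and no shown binding site. The map of the MRE core matches gives their spacing.

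**Figure D1:**
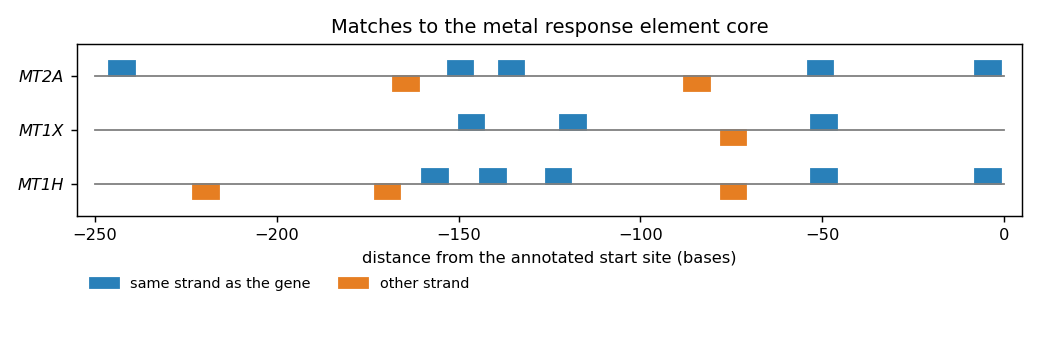
Positions of matches to the MRE core (both strands) in the 250 bases before the start sites of MT2A, MT1X and MT1H, with distance from the start site in bases on the x axis. MT2A carries 7 MRE core matches, MT1X 4 and MT1H 8.

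Only part of the family was measurable in these cells. MT2A, MT1X and the probe assigned to MT1A were detected on all 24 arrays, at a detection p under 0.01. MT1E was detected on 13 arrays (8 with AEZS-136, 5 with vehicle), MT1G on 7 (4 with AEZS-136, 3 with vehicle) and MT1F on 4 (3 with AEZS-136, 1 with vehicle). MT1M, with signals between 87.4 and 103, and MT1H, with signals between 92.7 and 104, were not well above background on any array and were not tested. MT1H, whose promoter held the most MRE core matches of the 3, thus gave no measurable signal in any line. The 7 further metallothionein probes that the platform annotation lists, among them those of the brain form MT3 and of MT4, the form of squamous epithelia, were likewise detected on 0 of 24 arrays. They include another probe of MT1H and another probe of MT1E, with signals between 97.3 and 120 for the latter. The detections of MT1E thus rest on its chosen probe alone.

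The platform annotation used here names the genes of 7 of the 8 probes. The probe assigned to MT1A is not listed there, and its name rests on the list of members alone. The metallothionein transcripts are close copies of each other, and whether a probe also bound a related transcript was not tested, because probe sequences were not used here. All signals below are normalized signals in arbitrary units, and a fold change is that of the log2 signal. Because no background was subtracted, fold changes of dim probes are understated.

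Across the whole series, the mean signal of an array lay between 297 and 361, except for AEZS-136-treated L-428 replicate 3 at 255.6, and 29.6% to 33.7% of the probes were detected. Arrays of 1 group correlated with r between 0.9904 and 0.9958. Of the Hodgkin and Reed-Sternberg cell markers, IRF4, FSCN1 and 1 of 2 TRAF1 probes were detected on all 24 arrays, CCL17 on 15 and CD274 on 9, whereas TNFRSF8, the CD30 antigen, was detected on the 6 arrays of L-540 alone. Of the B cell markers, CD79A was detected on 19 arrays over all 4 lines at its strongest probe, CD79B on 7 (6 of them L-428) and PAX5 on none. Of the T cell markers, GATA3 was detected on all 24 arrays and CD3E on none. CD2 was detected on the arrays of L-540 and SUP-HD1, CD4 on those of L-540 and KM-H2, and CD3D on those of KM-H2 alone. Of the monocyte and macrophage markers, CSF1R was detected on 19 arrays over all 4 lines, LYZ on at most 2 and CD163 on none. CD14 was detected on 11 arrays at its strongest probe, among them all 6 KM-H2 arrays, 3 of L-540 and 2 of L-428. These markers did not settle the identity of the lines, and every result below, by line or by class, goes by the labels.

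In L-540 cells, AEZS-136 lowered all 3 well-measured metallothioneins by similar amounts. MT2A, the principal human metallothionein, had signals of 957, 1263 and 1039 in AEZS-136-treated cells, against 2128, 2342 and 2556 in vehicle-treated controls. MT1X, the last gene of the cluster, had 698, 900.4 and 674 in AEZS-136-treated cells, against 1271, 1285 and 1647 in controls. The MT1A probe had 901, 1033 and 823 in AEZS-136-treated cells, against 1703, 1975 and 1861 in controls. For each of the 3 probes every treated array was below every control array, and non-overlap of this kind was seen at 45.6% of all tested probes in this line.

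The log2 fold change in L-540 cells was -1.11 for MT2A (SE 0.20, adjusted p = 8.7e-05 by limma), which is 2.16-fold lower with a 95% confidence interval of the log2 value from -1.54 to -0.69. It was -0.89 for MT1X (SE 0.18, adjusted p = 0.00026) and -1.01 for the MT1A probe (SE 0.15, adjusted p = 3.6e-06). Thus 3 of the 6 tested members fell and 0 rose, where 9.96% of all tested probes fell and 9.59% rose (19.5% called in either direction). A probe was called where its adjusted p was under 0.05 and its log2 fold change reached 0.4 or -0.4. Ordered from the most negative fold change among the 20027 tested probes, MT2A stood at place 206, the MT1A probe at 280 and MT1X at 434. The dim members did not pass, with log2 fold changes of -0.07 for MT1G, -0.01 for MT1F and 0.07 for MT1E. The median over the 6 members was -0.48, against 0.01 over all tested probes, and fell in the gap between the 3 called probes and the dim ones.

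In L-428 cells the same 3 probes moved the other way. MT2A had signals of 2694, 2686 and 2364 in AEZS-136-treated cells, against 1014, 993 and 532 in vehicle-treated controls. The MT1A probe had 1616, 1709 and 1300.1 in AEZS-136-treated cells, against 698, 823 and 516 in controls. MT1X had 700.0, 693 and 572 in AEZS-136-treated cells, against 473, 494 and 300.0 in controls. Every treated array was above every control array for the 3 probes, as treated and control arrays did not overlap at 37.2% of all tested probes in this line, and the third control array was the lowest of its group for each of them.

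MT2A rose by 1.67 on the log2 scale in L-428 cells (SE 0.20, 95% confidence interval 1.24 to 2.09, adjusted p = 6.6e-07 by limma), a 3.17-fold increase that stood at place 30 from the top of the 20027 tested probes. The MT1A probe rose by 1.20 (SE 0.15, adjusted p = 6e-07, 2.3-fold, place 76), and MT1X by 0.66 (SE 0.18, adjusted p = 0.0062, 1.58-fold, place 462). Hence 3 of 6 tested members rose and 0 fell, where 6.62% of all tested probes rose and 6.69% fell (13.3% called). The median over the 6 members was 0.42, against 0.00 over all tested probes. It fell in the gap between the 3 called probes and the dim ones, so it does not describe a shift of the whole family. MT1F, which enters it, passed the detection filter only through L-428 arrays. Without the third vehicle array the fold change was 1.36 for MT2A (adjusted p = 5.2e-06), 1.02 for the MT1A probe (adjusted p = 8.1e-06) and 0.43 for MT1X, which then missed the threshold (adjusted p = 0.077). By the methods' t-test, which takes the spread of each probe from the 6 arrays alone, none of the 3 passed in L-428 cells (adjusted p of 0.054 for MT2A, 0.057 for the MT1A probe and 0.19 for MT1X), whereas all 3 passed in L-540 cells (0.014, 0.011 and 0.038 in the same order).

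The dim MT1F and MT1G had their largest log2 fold changes of the 4 lines in L-428, but neither passed. MT1F was detected on the 3 AEZS-136-treated arrays (142, 148 and 135), against 1 of the 3 vehicle-treated arrays (143, with 123 and 110.4 on the arrays without detection). Its treated and control values overlapped, and its log2 fold change of 0.18 (SE 0.09) did not pass (adjusted p = 0.13). MT1G, a gene often silenced in carcinomas, had 116, 123 and 115 in AEZS-136-treated cells, against 108, 106 and 102 in controls, and was detected on 1 of these 6 arrays. Its groups did not overlap, but its log2 fold change of 0.16 (SE 0.08) did not pass (adjusted p = 0.13). After normexp background correction, which stretches the differences of dim probes, the log2 fold change of MT1F was 0.55 and passed (adjusted p = 0.04). That of MT1G was 0.44 (adjusted p = 0.053). MT1F passed the detection filter only through its L-428 arrays, so its values in this line are a description and no independent test. MT1E, with a log2 fold change of 0.11, did not pass (adjusted p = 0.44).

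**Figure D2:**
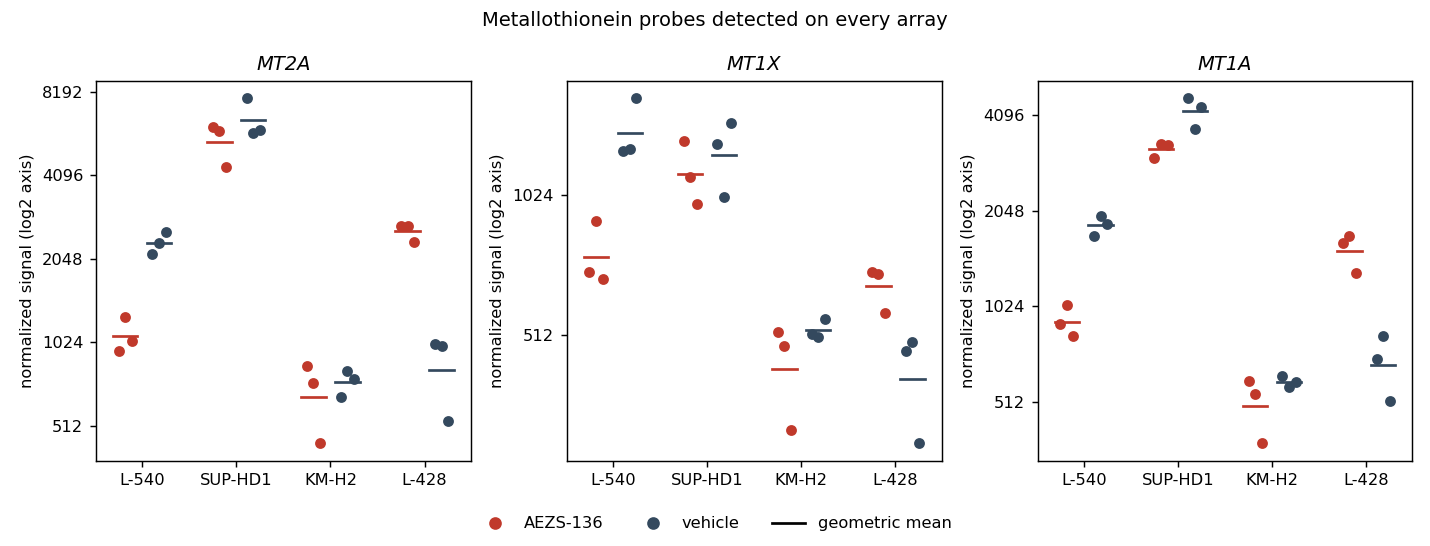
Normalized signal (log axis) of MT2A, MT1X and the MT1A probe on each of the 24 arrays, with AEZS-136-treated arrays left of vehicle-treated arrays in each HL line and bars at the geometric means. Treated arrays lie below the controls in L-540 and above them in L-428 for all 3 probes, and MT2A and the MT1A probe are highest in SUP-HD1.

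SUP-HD1 cells had the highest MT2A signal of the 4 lines, and no metallothionein was called as changed under AEZS-136. MT2A had 6124, 5899.8 and 4381 in AEZS-136-treated cells, against 7756, 5813 and 5972 in vehicle-treated controls, and MT1X had 1335, 1116 and 979, against 1314, 1014 and 1456 in controls. The groups of both probes overlapped, with log2 fold changes of -0.26 for MT2A (95% confidence interval -0.68 to 0.17, adjusted p = 0.43 by limma) and -0.14 for MT1X (adjusted p = 0.66). The MT1A probe had 2993, 3317 and 3286 in AEZS-136-treated cells, against 4626, 3702 and 4352 in controls, with no overlap, as at 36.8% of all tested probes in this line. Its log2 fold change of -0.40 (SE 0.15, adjusted p = 0.047) fell just short of the minimum of 0.4, so that 0 of 6 members were called where 12.8% of all tested probes were. It was called without a minimum fold change, and with the authors' normalized values (-0.43, adjusted p = 0.041).

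SUP-HD1 was the only line in which MT1G was detected on all 6 arrays, with 134, 159 and 128 in AEZS-136-treated cells, against 164, 141 and 144 in controls. These values overlapped, and the log2 fold change of MT1G was -0.10 (adjusted p = 0.44). MT1F was detected on none of the 6 arrays. MT1E, detected on 2 of the 3 treated arrays and 1 of the 3 control arrays, had a log2 fold change of 0.00. The median over the 6 members was -0.12, against 0.00 over all tested probes.

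KM-H2 cells showed no called change in any metallothionein. MT2A had 842, 733 and 443 in AEZS-136-treated cells, against 651, 810.1 and 755 in vehicle-treated controls. The MT1A probe had 594, 539 and 378 in AEZS-136-treated cells, against 617, 568 and 590.0 in controls, and MT1X had 519, 486 and 321, against 516, 508 and 555 in controls. The groups overlapped for all 3, and the third treated array was the lowest of its group each time.

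The log2 fold changes in KM-H2 cells were -0.18 for MT2A (95% confidence interval -0.60 to 0.24, adjusted p = 0.64 by limma), -0.28 for MT1X (-0.65 to 0.09, adjusted p = 0.33) and -0.26 for the MT1A probe (-0.56 to 0.04, adjusted p = 0.27). Without the third treated array they were 0.09, -0.07 and -0.06 in the same order, so the sign for MT2A rested on that array. Of the 6 tested members 0 were called, where 7.9% of all tested probes were. MT1E was detected on 2 of the 3 treated and all 3 control arrays, and its log2 fold change was -0.08, while MT1G and MT1F, not well above background on any KM-H2 array, had 0.02 and 0.04.

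**Figure D3:**
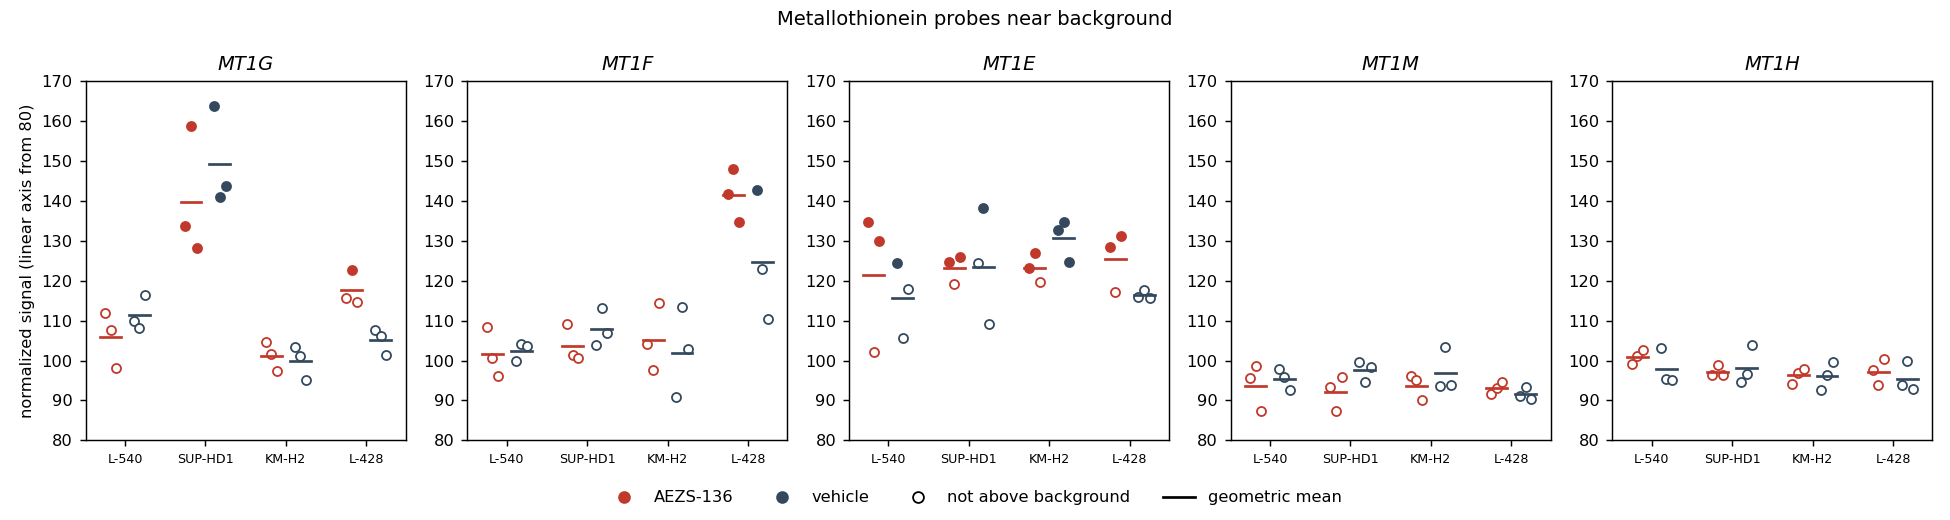
Normalized signal of the 5 dim members MT1G, MT1F, MT1E, MT1M and MT1H on each array, AEZS-136-treated left of vehicle-treated in each HL line, with filled points for arrays on which the probe was detected. MT1G is detected throughout SUP-HD1, MT1F on the 3 treated arrays and 1 control array of L-428, and MT1M and MT1H on none.

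The responses were then set directly against each other. In the contrast of the classes, the mean log2 fold change of both resistant lines minus that of both sensitive lines, 3 of the 6 tested members differed, all with a more positive response in the resistant lines, where 3.75% of all tested probes did so (6.74% called in either direction). The difference was 1.43 for MT2A (SE 0.20, adjusted p = 1.5e-05 by limma), 1.17 for the MT1A probe (SE 0.15, adjusted p = 2.1e-06) and 0.70 for MT1X (SE 0.18, adjusted p = 0.007). MT1G had 0.18 (adjusted p = 0.13), MT1F 0.15 (adjusted p = 0.28) and MT1E -0.02 (adjusted p = 0.92). With 2 lines in each class, the contrast describes these lines. Of the resistant lines, L-428 alone had positive responses at these 3 probes, while those of KM-H2 were negative and not called.

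The pairs of lines showed where the difference between the classes lay. L-428 against L-540 gave the widest gap, with log2 fold changes of MT2A that differed by 2.78 (adjusted p = 7.9e-08), of the MT1A probe by 2.21 (adjusted p = 1.3e-08) and of MT1X by 1.55 (adjusted p = 6.4e-05), where 6.71% of all tested probes were called with a more positive response in L-428. KM-H2 against SUP-HD1, the other resistant and sensitive line, gave no called member (10% of all tested probes called). Their responses differed by 0.07 for MT2A (95% confidence interval -0.52 to 0.67), 0.14 for the MT1A probe (-0.29 to 0.57) and -0.15 for MT1X (-0.67 to 0.38), intervals that leave room for differences of over 0.5 on the log2 scale.

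The resistant L-428 and KM-H2 differed from each other as well, by 1.85 for MT2A (adjusted p = 8.5e-05), 1.46 for the MT1A probe (adjusted p = 2.5e-05) and 0.94 for MT1X (adjusted p = 0.015), where 4.27% of all tested probes were called in this direction. L-428 against the sensitive SUP-HD1 gave 1.92 for MT2A (adjusted p = 4.8e-05), 1.60 for the MT1A probe (adjusted p = 7e-06) and 0.80 for MT1X (adjusted p = 0.043), where 4.46% were. L-428 thus differed from each of the other lines at all 3 well-measured probes, and these 9 differences were positive under every alternative run. MT1X was called in 21 of the 35 alternative settings against SUP-HD1 and in 33 of 35 against KM-H2, and the other 7 differences in all 35.

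L-540 also stood below the remaining lines, with less certainty. SUP-HD1 against L-540 gave 0.86 for MT2A (adjusted p = 0.045), 0.75 for MT1X (adjusted p = 0.044) and 0.61 for the MT1A probe (adjusted p = 0.046), where 5.79% of all tested probes were called in this direction. All 3 lie close to the threshold and were called in 19, 19 and 17 of the 35 settings in that order, with a highest adjusted p of 0.11, 0.13 and 0.12. KM-H2 against L-540 gave 0.93 for MT2A (adjusted p = 0.024), 0.75 for the MT1A probe (adjusted p = 0.011) and 0.61 for MT1X, which did not pass (adjusted p = 0.1), where 7.45% were. These 2 calls stood in 27 of 35 settings for MT2A and 34 of 35 for the MT1A probe. Over the 6 pairs of lines and the 6 tested members, 14 differences were called, all of them at the 3 well-measured probes.

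**Figure D4:**
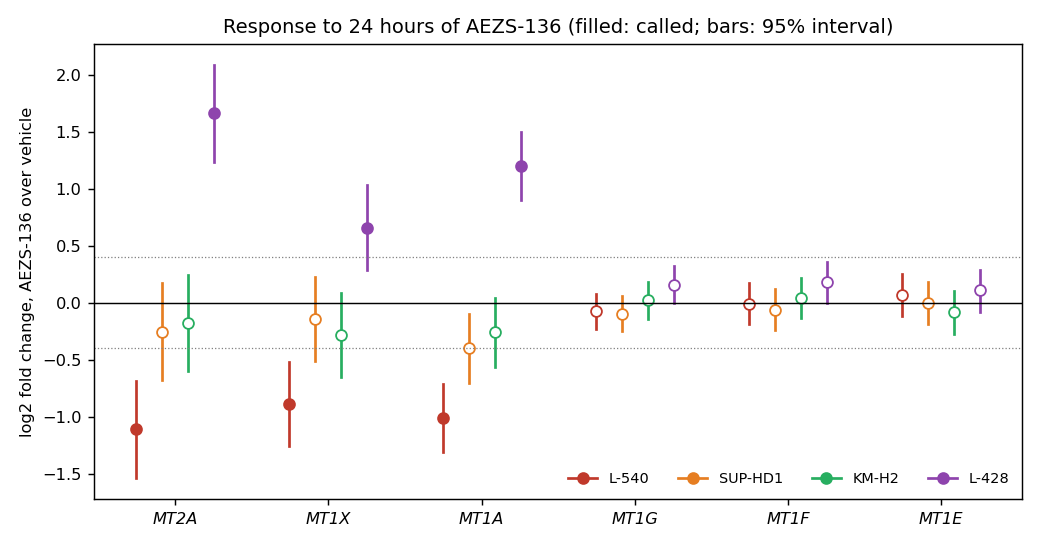
Log2 fold change of AEZS-136 over vehicle for the 6 tested members in each HL line, with bars for the 95% confidence interval, filled points for called changes and dotted lines at 0.4 and -0.4. MT2A, MT1X and the MT1A probe lie below 0 in L-540 and above 0 in L-428, with MT2A at -1.11 and 1.67.

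In vehicle-treated cells, the resistant lines carried less metallothionein signal than the sensitive lines at all 3 well-measured probes. As mean log2 signals (SD, n = 3 arrays), MT2A stood at 9.67 ± 0.53 in L-428, 9.52 ± 0.16 in KM-H2, 12.66 ± 0.23 in SUP-HD1 and 11.19 ± 0.13 in L-540. The MT1A probe stood at 9.38 ± 0.34 in L-428, 9.21 ± 0.06 in KM-H2, 12.04 ± 0.17 in SUP-HD1 and 10.85 ± 0.11 in L-540. MT1X stood at 8.69 ± 0.40 in L-428, 9.04 ± 0.07 in KM-H2, 10.28 ± 0.27 in SUP-HD1 and 10.44 ± 0.21 in L-540. Every array of a resistant line was below every array of a sensitive line for the 3 probes. Groups did not overlap at 62.6% of all tested probes between KM-H2 and L-540, 57.2% between L-428 and L-540, 59.6% between KM-H2 and SUP-HD1 and 54.3% between L-428 and SUP-HD1.

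For MT2A and the MT1A probe, the largest differences were those of the resistant lines from SUP-HD1. KM-H2 minus SUP-HD1 gave -3.13 for MT2A (adjusted p = 6.6e-13 by limma, 8.77-fold lower), -2.83 for the MT1A probe (adjusted p = 5.2e-15) and -1.25 for MT1X (adjusted p = 1.3e-06), where 17.5% of all tested probes were called lower. L-428 minus SUP-HD1 gave -2.99 for MT2A (adjusted p = 2.3e-12), -2.66 for the MT1A probe (adjusted p = 2.5e-14) and -1.60 for MT1X (adjusted p = 2.7e-08), where 15% were. The lines differed this widely over the whole array, so a call alone says little about the family.

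The distance of the resistant lines to L-540 was smaller for MT2A and the MT1A probe and slightly larger for MT1X. KM-H2 minus L-540 gave -1.67 for MT2A (adjusted p = 1.1e-07), -1.64 for the MT1A probe (adjusted p = 3.3e-10) and -1.40 for MT1X (adjusted p = 2e-07), where 17.3% of all tested probes were called lower. L-428 minus L-540 gave -1.52 for MT2A (adjusted p = 5.4e-07), -1.47 for the MT1A probe (adjusted p = 3.2e-09) and -1.75 for MT1X (adjusted p = 4.7e-09), where 15.6% were. The 3 probes gave values near each other here, whereas in the comparisons with SUP-HD1 the difference was smaller for MT1X than for MT2A and the MT1A probe.

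Neighbours in the order of levels did not all differ. L-428 minus KM-H2 gave 0.14 for MT2A (adjusted p = 0.59), 0.17 for the MT1A probe (adjusted p = 0.34) and -0.35 for MT1X (adjusted p = 0.1), and 0 of 6 members were called where 33% of all tested probes were. SUP-HD1 minus L-540 gave 1.47 for MT2A (adjusted p = 9.4e-07, 2.76-fold) and 1.19 for the MT1A probe (adjusted p = 1.2e-07, 2.28-fold), but -0.16 for MT1X (adjusted p = 0.49), where 17.1% of all tested probes were called higher. The order for MT2A and the MT1A probe was therefore SUP-HD1, L-540 and then L-428 with KM-H2, and for MT1X it was L-540 with SUP-HD1 and then KM-H2 with L-428.

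Among the dim members, MT1G was called between SUP-HD1 and each other line. MT1G passed the detection filter only through its SUP-HD1 arrays, so these calls are a description and no independent test. Where the other line was not well above background the difference is a bound, computed against the lowest signal among detected probes. MT1G was at least 1.2-fold higher in SUP-HD1 than in L-540. Against SUP-HD1 it was at least 1.22-fold lower in KM-H2 and at least 1.21-fold lower in L-428. MT1F was detected on 1 of the 3 vehicle-treated L-428 arrays and on no vehicle-treated array of the other lines, and neither MT1F nor MT1E was called between any pair of lines. Over the 6 pairs, 17 differences of level were called, those of MT1G among them.

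Under AEZS-136 the gap between L-428 and KM-H2 opened and that between L-428 and L-540 turned round. MT2A stood at 11.33 ± 0.11 in L-428, 9.34 ± 0.49 in KM-H2, 12.40 ± 0.26 in SUP-HD1 and 10.08 ± 0.21 in L-540 (mean log2 signal ± SD, n = 3 arrays). All 3 treated L-428 arrays (2364 to 2694) were above all 3 treated L-540 arrays (957 to 1263), whereas all 3 control L-428 arrays (532 to 1014) were below all 3 control L-540 arrays (2128 to 2556). Treated L-428 and L-540 arrays did not overlap at 57.7% of all tested probes. The MT1A probe, at 10.58 ± 0.21 in L-428 and 9.84 ± 0.17 in L-540 after treatment, did the same. MT1X, at 9.35 ± 0.16 in L-428 and 9.55 ± 0.23 in L-540 after treatment, did not, and its treated arrays overlapped between these lines. SUP-HD1 kept the highest MT2A signal in both treatments.

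The regulators and partners of the family were read from lists chosen with the family in mind. MTF1, the metal-responsive factor that drives MRE-dependent transcription, was not called in any line, with log2 fold changes of 0.22 in L-428, 0.06 in KM-H2, 0.19 in SUP-HD1 and -0.03 in L-540. SLC30A1, the zinc exporter at the plasma membrane that is itself an MTF1 target, was not called at either of its 2 tested probes in any line, with log2 fold changes from -0.16 to 0.14. In L-428, those of the SLC30A1 probes were 0.04 and 0.08. SLC39A10, a zinc importer that MTF1 is known to repress in mouse cells, had -0.14 in KM-H2 and -0.19 in L-540, neither called, and was detected on 1 of 6 L-428 arrays and 0 of 6 SUP-HD1 arrays, so that a fall could not have been seen there.

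Zinc transporters were called at shares to be read against all tested probes, of which 13.3% were called in L-428, 7.9% in KM-H2, 12.8% in SUP-HD1 and 19.5% in L-540. Of 8 tested probes of the SLC30 exporters, 1 rose in L-540 (SLC30A7, which loads zinc into the Golgi, 0.62) and 2 fell in L-428 (SLC30A5 at -0.54 and SLC30A3 at -0.49), with 0 called in SUP-HD1 and KM-H2. The other tested probe of SLC30A5, detected on all 24 arrays, had -0.27 in L-428 and did not pass (adjusted p = 0.068 by limma). The exporters' medians were -0.03 in L-428, 0.07 in KM-H2, -0.09 in SUP-HD1 and 0.02 in L-540. Of 15 tested probes of the SLC39 importers, 1 rose and 2 fell in L-540, 1 fell in SUP-HD1, 0 changed in KM-H2 and 1 fell in L-428. The largest changes among them were those of SLC39A8, a zinc and manganese importer, at -0.75 in L-540, and of a SLC39A3 probe at -0.53 in L-428. The other tested probes of SLC39A3, detected on all 24 arrays, had -0.36 (adjusted p = 0.0043) and -0.14 (adjusted p = 0.51) in L-428 and were not called. The importers' medians were -0.14 in L-428, -0.06 in KM-H2, -0.17 in SUP-HD1 and -0.26 in L-540, against -0.01 to 0.01 over all tested probes.

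Heat shock genes and NRF2 targets were read because metals and oxidative stress also induce members of these groups. What part either stress had in the metallothionein values was not tested. Their counts are to be read against all tested probes, of which 13.3% were called in L-428, 7.9% in KM-H2, 12.8% in SUP-HD1 and 19.5% in L-540. Of 12 tested probes of MTF1, HSF1 and heat shock genes, 1 rose and 1 fell in L-540, 0 rose and 4 fell in SUP-HD1, 0 rose and 1 fell in KM-H2, and 0 rose and 4 fell in L-428. HSPA1B, an inducible HSP70, rose by 1.03 in L-540 (adjusted p = 5.4e-08 by limma) and fell in SUP-HD1, at -0.49 (adjusted p = 0.0019). It was not called in KM-H2, at 0.4 after rounding (adjusted p = 0.015), or in L-428, at 0.09 (adjusted p = 0.65). HSPA8, the constitutive HSC70, had its largest change in SUP-HD1, at -0.99 (adjusted p = 9.9e-09). Among the NRF2 targets (11 tested probes), 1 rose in L-540, 2 rose in KM-H2 and 0 were called in SUP-HD1 and L-428. HMOX1, the haem oxygenase that oxidative stress and metals induce, rose by 0.81 in L-540 (adjusted p = 1.5e-06). It was not called in the other lines, at 0.10 in L-428 (adjusted p = 0.59), 0.26 in SUP-HD1 (adjusted p = 0.082) and 0.03 in KM-H2 (adjusted p = 0.91). The 2 probes of FTL, the ferritin light chain, rose in KM-H2 by 0.68 and 0.55.

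Among the glucocorticoid-responsive genes, the called rises were those of TSC22D3 and DUSP1 alone. Of 9 tested probes of 5 genes, 3 rose and 0 fell in L-540, 3 rose and 1 fell in SUP-HD1, 0 were called in KM-H2, and 3 rose and 0 fell in L-428, where the 3 were probes of TSC22D3. TSC22D3, which encodes GILZ and is also a target of FOXO factors, rose at its strongest probe by 1.99 in L-428 (adjusted p = 1.2e-13), 1.66 in SUP-HD1 (adjusted p = 1.3e-11) and 0.83 in L-540 (adjusted p = 3.3e-07), and had 0.27 in KM-H2 (adjusted p = 0.077). DUSP1, a MAP kinase phosphatase, rose by 0.61 in SUP-HD1 and 0.76 in L-540. Its 0.39 in L-428 (adjusted p = 0.00044 by limma) and 0.29 in KM-H2 (adjusted p = 0.012) missed a call only by the minimum fold change. FKBP5, a standard glucocorticoid marker, was called only as lower in SUP-HD1 (-0.44). Neither SGK1 nor KLF9, which was detected on KM-H2 arrays alone, was called in any line. The medians of this list were 0.26 in L-428, -0.01 in KM-H2, 0.13 in SUP-HD1 and 0.08 in L-540. Over all tested probes, 13.3% were called in L-428, 7.9% in KM-H2, 12.8% in SUP-HD1 and 19.5% in L-540.

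The probes whose log2 signal followed the mean standardized level of the 3 well-measured metallothioneins most closely over the 24 arrays were, as a description, RNA28SN5 (r = 0.948), 3 probes to which the annotation gives no gene (r = 0.94, 0.923 and 0.917) and ISG20, an interferon-induced exonuclease (r = 0.904). The 24 points share 4 lines and 8 groups, so such a correlation mostly follows differences between lines. RNA28SN5 stands for 28S ribosomal RNA, which is not polyadenylated, and its log2 fold change was 0.59 in L-428 (adjusted p = 1.2e-06), 0.07 in KM-H2, -0.14 in SUP-HD1 and -0.44 in L-540 (adjusted p = 3.2e-05), called in the same 2 lines and directions as MT2A. Its part in the metallothionein values was not tested. With the mean of all 6 tested members, the nearest probes were IVNS1ABP (r = 0.893), an unnamed probe (r = 0.887), SKA1 (r = 0.876), ZNF548 (r = 0.873) and ISG20 (r = 0.861).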

How the data were processed

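RNA was measured in 24 samples, 4 HL lines with AEZS-136 or vehicle and 3 arrays each, grouped by the submitters' labels; dose, vehicle and classes came from the paper. The authors deposited signal intensity of 47323 probes on a linear scale, exported from BeadStudio (version and chip not given in the sources used here), without normalization between arrays. The detection value deposited beside each intensity is a fraction between 0 and 1 and was read as 1 minus the detection p. The log2 values that the authors deposited separately follow robust spline normalization in lumi, per the paper, and served as an alternative.

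Intensities were put on the log2 scale and brought to common quantiles across all 24 arrays, with no background correction. The 20027 probes that 3 or more arrays detected (detection p under 0.01) were fitted in limma 3.58.1 (R 4.3.3) with 8 group means, 16 residual and 8.94 prior degrees of freedom. Benjamini-Hochberg adjustment ran over all tested probes in each contrast, and a call needed an adjusted p under 0.05 with a log2 fold change of 0.4 or more in either direction. With 3 arrays against 3, an exact two-sided permutation test of 1 probe cannot give a p under 0.1. The number of arrays limits the precision (median SE of a log2 fold change 0.0848). The scripts were tested on simulated data.

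Gene names came from the platform annotation, in which 30113 probes have 1 symbol, 8 have several and 17202 are not listed. Promoters were RefSeq's (GRCh38.p14). All 8 members were named, and for each list the counts and the largest changes. The members and lists were chosen with earlier results of these data known. Alternatives were median scaling, quantile normalization within each line, cyclic loess, normexp (offset 16), no filter, a filter on detection across 1 entire group, the t-test of the methods, each contrast's groups alone, a block for the replicate number, a minimum log2 fold change of 0 or of 1, the authors' values, and leaving out each array. Figures were drawn with matplotlib 3.10.9.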

Additional observations from a re-analysis of the deposited data

Results flagged for a closer look

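The results below are differences in response between HL lines that passed their own test in limma (log2 fold change in the line named first minus that in the line named second). For the resistant lines minus the sensitive lines they were 1.43 for MT2A, 0.70 for MT1X and 1.17 for the MT1A probe. For L-428 minus L-540 they were 2.78 for MT2A, 1.55 for MT1X and 2.21 for the MT1A probe, with opposite signs of the 2 responses at all 3. For L-428 minus SUP-HD1 they were 1.92 for MT2A, 0.80 for MT1X and 1.60 for the MT1A probe. For L-428 minus KM-H2, a pair within the resistant class, they were 1.85 for MT2A, 0.94 for MT1X and 1.46 for the MT1A probe.

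For SUP-HD1 minus L-540, a pair within the sensitive class, they were 0.86 for MT2A, 0.75 for MT1X and 0.61 for the MT1A probe. For KM-H2 minus L-540 they were 0.93 for MT2A and 0.75 for the MT1A probe. The 6 pairs reuse the same 4 lines, so these values are not independent of each other.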

How the results depend on the processing

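The 3 members called lower in L-540 were called under every setting run except that a minimum log2 fold change of 1 left 2. MT2A and the MT1A probe were called in L-428 under every setting run except the methods' t-test, which called 0 members in L-428, and MT1X missed there also under that minimum and without L-428 vehicle replicate 3. Log2 fold changes of MT2A ranged from -1.24 to -1.03 in L-540 and from 1.36 to 1.83 in L-428. In SUP-HD1, 1 member (the MT1A probe) was called without a minimum fold change and with the authors' normalized values, and 0 to 1 when each array was left out. The 14 called response differences became 9 with normexp background correction, 9 without a filter and 7 with a minimum log2 fold change of 1, and lay between 9 (without KM-H2 vehicle replicate 1) and 15 (without KM-H2 AEZS-136 replicate 3) when each array was left out. The cause of these shifts was not tested, except that a higher minimum admits fewer calls by construction.

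The sign turned only at values that were not called. MT1E in SUP-HD1 was 0.00 with normexp and with the authors' values, and ranged from -0.09 to 0.08 when arrays were left out. MT1F in L-540 was 0.00 with normexp and ranged from -0.06 to 0.03. Leaving out arrays also gave -0.01 to 0.19 for MT1E in L-540, -0.04 to 0.12 for MT1F and -0.02 to 0.05 for MT1G in KM-H2, and -0.37 to 0.09 for MT2A in KM-H2.

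Replicate numbers did not pair the samples, since the deviations of same-numbered arrays correlated with r from -0.2 to 0.15 and only 2 of 12 pairs exceeded 0.1. With the replicate number as a block, 3 members were called in L-540, 3 in L-428, 0 in the other 2 lines and 14 response differences, as without it. Levels of vehicle-treated lines were not fitted with the block. The contrast of the classes and the pairs of responses were not fitted with the t-test, nor was the class contrast with its groups alone. Signal over background limits MT1G, MT1F and MT1E, whose changes are understated, and MT1M and MT1H have no measured response.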

Other observations

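Genes that flank the metallothionein cluster on chromosome 16 were measured at 7 tested probes of 4 genes. Of these probes, 2 rose and 2 fell in L-540, 2 rose and 2 fell in SUP-HD1, 0 were called in KM-H2, and 1 rose and 1 fell in L-428, where 13.3% of all tested probes were called in L-428, 7.9% in KM-H2, 12.8% in SUP-HD1 and 19.5% in L-540. NUP93, a nucleoporin, had log2 fold changes of -0.51 in L-428 (adjusted p = 0.00027 by limma), -0.04 in KM-H2 (adjusted p = 0.85), -0.53 in SUP-HD1 (adjusted p = 2e-04) and -0.86 in L-540 (adjusted p = 9.7e-08). BBS2, a component of the complex that carries cargo to the primary cilium, had at its stronger probe 0.43 in L-428, 0.12 in KM-H2, 0.61 in SUP-HD1 and 0.55 in L-540. NUDT21, a subunit of a cleavage and polyadenylation factor, was called in L-540 alone (-0.51). OGFOD1, a ribosomal protein hydroxylase, was called at 1 of its tested probes, in SUP-HD1 (-0.44). That probe had -0.34 in L-428 (adjusted p = 0.003), short of the minimum fold change. The other tested probes of OGFOD1 had -0.34 and -0.24 in SUP-HD1 and were not called.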
